A study of Mus musculus with 15 samples.

Results

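The phagocyte NADPH oxidase is the enzyme with which neutrophils, monocytes and macrophages make superoxide. A membrane flavocytochrome, built from the products of Cybb (the catalytic subunit NOX2) and Cyba, is switched on when cytosolic subunits (among them the products of Ncf1 and Ncf4) and a Rac GTPase join it. A proton channel, encoded by Hvcn1, carries out the charge that the enzyme moves, superoxide dismutases turn superoxide into hydrogen peroxide, and catalase breaks the peroxide down. In the brain this system is known from microglia and from blood-derived phagocytes.

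Described here are 9 genes of this system, out of 38924 genes listed, chosen by name: the oxidase genes Cybb, Cyba, Ncf1, Ncf4 and Rac2, the proton channel gene Hvcn1, and the removal genes Sod1, Sod2 and Cat. Each had 1 row in every file, and all 9 were among the 14967 genes tested. The cells were CD11b+ brain myeloid cells of wild type C57BL/6J males, 12 months old, that had been kept on a control chow diet (CD) or given a western diet (WD) from young adulthood. FACS divided them by the surface level of CD45 into CD45hi and CD45lo cells, and poly(A) RNA was sequenced from 4 CD CD45hi, 4 CD CD45lo, 3 WD CD45hi and 4 WD CD45lo samples. CD45lo cells are taken as resident microglia and CD45hi cells as a mixture enriched for cells from the blood. The authors propose that this mixture also holds activated microglia and dendritic cells. The groups are thus sort gates and not single cell types. The read counts were deposited per animal, but no label gives which CD45hi and CD45lo libraries share a mouse.

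Libraries summed to between 11951412 and 17912272 expected counts, which makes 3 counts, the smallest value taken as measurable here, equal to 0.156 to 0.282 cpm (the count scaled to a fixed library size, after TMM normalization). The lowest count of any of the 9 genes in any library was 194 (Sod2), so none was near this floor, which covers counting error only. Ptprc, which encodes CD45, was at 778.4 to 1289.9 cpm in CD45hi and 356.4 to 487.7 cpm in CD45lo libraries, and Itgam, which encodes CD11b, was at 1508.1 to 2206.7 cpm in all. Transcripts of the mitochondrial genome took 17.7 to 20.5% of counts in CD45hi libraries and 7.99 to 10.9% in CD45lo libraries. Expected counts of Ncf1, Rac2, Hvcn1 and Sod2 were not whole in any of the 15 libraries, which means that some of their reads were shared with other sequences. The whole spans of Cyba, Ncf1, Hvcn1 and Sod1 overlap that of a gene on the opposite strand (Gm20388, Gtf2ird2, Tctn1 and Scaf4). The library kit does not mark strand, so strand does not separate their reads. Overlap of their exons was not examined. Expected counts were not whole in 0 of 15 libraries for Cyba and in 1 of 15 for Sod1.

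The first question was which parts of the system differ between CD45hi and CD45lo cells within a diet. Cybb was far higher in CD45hi cells on either diet, while no other member passed the test against a 1.5-fold change (edgeR's glmTreat, FDR under 0.05, 14967 genes tested). In WD-fed mice this was 1 of 9 genes higher and 0 lower, beside 4.01% of all genes called higher and 1.17% called lower. In CD-fed mice it was again 1 of 9 higher and 0 lower, beside 3.39% and 0.588% of all genes. The median log2 fold change of the 9 genes was 0.51 on the WD, where that of all genes tested was 0, and 0.36 on the CD, where it was 0.04.

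**Figure D1:**
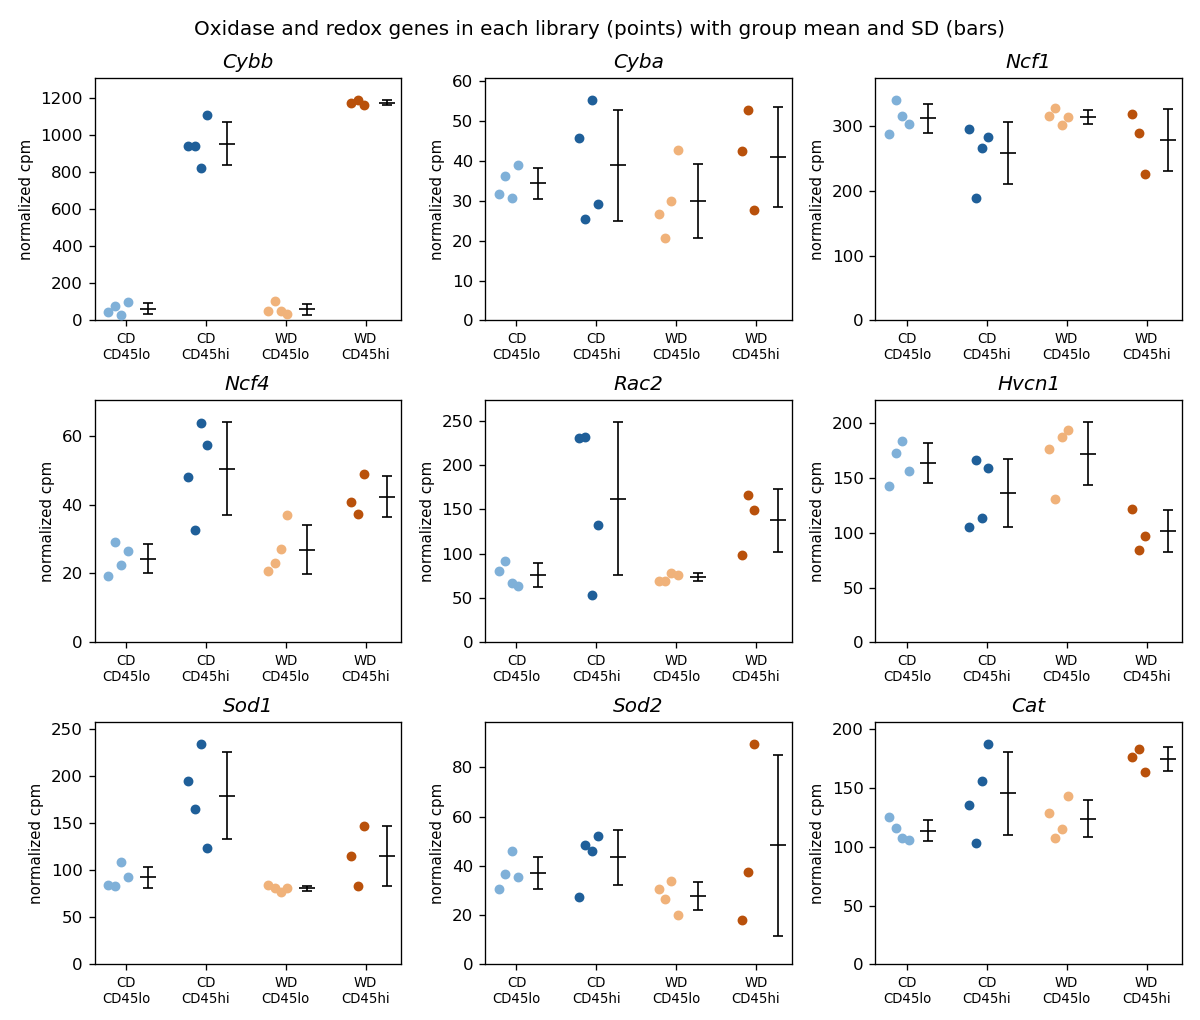
Normalized cpm of each of the 9 genes in the 15 libraries (points, linear axes from 0), by diet and CD45 level, with the group mean and SD (bars; n = 4, and n = 3 for WD CD45hi). The Cybb points of the CD45hi libraries lie between 822.3 and 1185.3 cpm and those of the CD45lo libraries between 31.1 and 104.8 cpm, whereas the points of most other genes lie close together or overlap.

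Cybb (chromosome X, 9435252 to 9487771, minus strand; mm10, as are all coordinates given here) stood at 938, 941, 822 and 1105 cpm in the 4 CD CD45hi libraries. The CD CD45lo libraries held 46.6, 76.1, 31.1 and 97.7 cpm. In WD-fed mice the CD45hi libraries held 1171.7, 1185.3 and 1160.9 cpm. The WD CD45lo libraries held 48.7, 104.8, 52.9 and 32.4 cpm. All 7 CD45hi libraries were thus above all 8 CD45lo libraries, and the lowest CD45hi value exceeded the highest CD45lo value by a wide margin on each diet. Between the gates the log2 fold change was 3.92 (SE 0.359, 95% interval 3.16 to 4.68), or 15.1-fold, on the CD (edgeR glmTreat, FDR = 4.92e-06). It was 4.30 (SE 0.375, 95% interval 3.51 to 5.09), or 19.6-fold, on the WD (edgeR glmTreat, FDR = 2.71e-06). The CD45lo values differed among themselves more, in proportion, than the CD45hi values did, with a mean of 62.9 ± 29.8 cpm (SD, n = 4) against 951.5 ± 116.3 (SD, n = 4) on the CD. The call was kept in each of 27 alternative settings on each diet, log2(TPM + 1) tested with limma among them, with a log2 fold change between 3.65 and 4.71.

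Markers of several cell types also differed between the gates, those of microglia in the opposite direction to Cybb. The summed level of 8 microglial marker genes was 5669.7 to 6934.7 cpm in CD45hi and 11953.4 to 15264.8 cpm in CD45lo libraries, and none of the 8 was at or under 3 counts throughout a group. For 7 monocyte markers the sum was 601.3 to 1209.3 cpm in CD45hi and 29.3 to 125 cpm in CD45lo libraries, and for 5 markers of border macrophages 615.9 to 2337.2 cpm and 53.6 to 203.5 cpm. For 11 neutrophil markers it was 1473.1 to 4277.4 cpm and 654.4 to 1386.1 cpm. Of these 11, 6 were called higher in CD45hi cells on each diet, 0 lower and 5 not called. Their median log2 fold change was 3.48 on the CD and 3.05 on the WD. Of all genes, 3.39% on the CD and 4.01% on the WD were called higher. Ly6g, a defining surface protein of neutrophils, was at no more than 7.34 cpm in any library and at or under 3 counts in 6 of 15. T and NK cell markers (5 genes) summed to 9.96 to 76.3 cpm in CD45hi and at most 0.227 cpm in CD45lo libraries. B cell, dendritic cell, erythroid and other brain cell markers summed to at most 27, 288.4, 131.5 and 16.5 cpm in CD45hi libraries and at most 13.1, 35.7, 128.1 and 6.23 cpm in CD45lo libraries. By library, in the order of the Cybb values above, the monocyte sum was 38.1, 56.3, 39 and 90 cpm in CD CD45lo libraries. In WD CD45lo libraries it was 36.9, 125, 68.1 and 29.3 cpm. The neutrophil sum, in the same order, was 781.9, 1386.1, 654.4 and 1090.9 cpm in CD CD45lo libraries. It was 966.2, 756.8, 781.3 and 971.9 cpm in WD CD45lo libraries. The border macrophage sum was 97.1, 96.2, 114 and 203.5 cpm in CD CD45lo libraries. It was 53.6, 115.4, 105.1 and 71.4 cpm in WD CD45lo libraries. The part of these cells in the Cybb difference, or in the spread of Cybb among CD45lo libraries, was not tested. In such bulk samples fewer cells of a type and less RNA per cell cannot be told apart.

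Cyba (chromosome 8, 122424776 to 122432930, minus strand) encodes the partner that holds NOX2 stable in the membrane. Its CD CD45hi libraries held 45.8, 25.5, 55.2 and 29.1 cpm and its CD CD45lo libraries 31.8, 36.2, 30.7 and 39.0 cpm. The WD CD45hi libraries held 42.5, 52.8 and 27.8 cpm, and the WD CD45lo libraries 26.6, 20.6, 29.9 and 42.7 cpm. The gates overlapped on both diets, with 2 CD CD45hi libraries below every CD CD45lo library and 2 above. The log2 fold change was 0.18 (95% interval -0.52 to 0.87) on the CD and 0.46 (95% interval -0.29 to 1.2) on the WD, so the intervals leave room for differences of either sign.

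Among the cytosolic subunits, Ncf1 (chromosome 5, 134220053 to 134229625, minus strand), the organizer that carries the activation signal, was level to slightly lower in CD45hi cells. Its CD CD45hi libraries held 295, 188, 266 and 283 cpm against 288, 339, 316 and 302 cpm in CD CD45lo libraries. The WD CD45hi libraries held 319, 289 and 226 cpm against 315, 327, 301 and 313 cpm in WD CD45lo libraries. The groups overlapped, and the log2 fold change was -0.27 (95% interval -0.60 to 0.05) on the CD and -0.18 (95% interval -0.53 to 0.18) on the WD.

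Ncf4 (chromosome 15, 78244801 to 78262580, plus strand), which binds a membrane phosphoinositide during phagocytosis, was higher in every CD45hi library than in every CD45lo library of the diet, but the size of the difference was not past 1.5-fold by the test. Its CD CD45hi libraries held 48.0, 32.5, 63.6 and 57.2 cpm and its CD CD45lo libraries 19.2, 29.0, 22.6 and 26.5 cpm. The WD CD45hi libraries held 40.7, 37.2 and 48.8 cpm and the WD CD45lo libraries 20.6, 23.1, 27 and 37 cpm, so that the closest values of the gates were almost equal on the WD. For Ncf4 the log2 fold change was 1.05 (SE 0.298) on the CD (edgeR glmTreat, FDR = 0.217) and 0.65 (SE 0.317) on the WD (FDR = 0.585).

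Rac2 (chromosome 15, 78559167 to 78572783, minus strand), the Rac GTPase of blood cells, varied widely within the CD CD45hi group. The 4 libraries held 231, 232, 53.3 and 132.6 cpm, the third lying below all 4 CD CD45lo libraries, which held 80.4, 92.4, 67.0 and 63.5 cpm. The WD CD45hi libraries held 98.3, 166.8 and 149.1 cpm and all lay above the WD CD45lo libraries, at 69.8, 69.2, 78.7 and 76.4 cpm. For Rac2 the log2 fold change was 1.1 (SE 0.333) on the CD (edgeR glmTreat, FDR = 0.226) and 0.91 (SE 0.354) on the WD (FDR = 0.344). The summed neutrophil markers were at 1751.8 cpm in CD CD45hi replicate 3 and at 3807, 4277.4 and 4196 cpm in replicates 1, 2 and 4. In the WD CD45hi libraries they were at 1699.3, 1473.1 and 2582 cpm. CD CD45hi replicate 3 also had the lowest monocyte sum (601.3 cpm) and dendritic cell sum (135.6 cpm) of its group. Its microglial sum was the highest of the group (6800.3 cpm). Its border macrophage sum, at 1746.1 cpm, lay within the range of replicates 1, 2 and 4 (1683.5 to 1850.7 cpm). Whether the cell mixture bears on Rac2 was not tested. Without CD CD45hi replicate 3 the CD value of Rac2 was 1.39 and passed the test (edgeR glmTreat, FDR = 0.0134). Its widely expressed relative Rac1 was at 498.9 to 913.6 cpm in CD45hi and 690.5 to 911.6 cpm in CD45lo libraries, with a log2 fold change of -0.20 (95% interval -0.55 to 0.16) on the CD and -0.13 (95% interval -0.52 to 0.25) on the WD.

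Hvcn1 (chromosome 5, 122206804 to 122242297, plus strand) had the lowest log2 fold change of the 9 genes averaged over the diets. Its WD CD45hi libraries held 122.0, 84.2 and 97.5 cpm, all below the WD CD45lo libraries at 176.8, 130.7, 187.2 and 193.9 cpm. On the CD the gates overlapped, with 105.6, 166.3, 113.2 and 159.3 cpm in CD45hi and 142.3, 172.4, 184.0 and 156.0 cpm in CD45lo libraries. For Hvcn1 the log2 fold change was -0.77 (SE 0.215, 95% interval -1.22 to -0.31) on the WD (edgeR glmTreat, FDR = 0.346) and -0.27 (95% interval -0.68 to 0.15) on the CD.

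Of the removal genes, Sod1 (chromosome 16, 90220754 to 90226329, plus strand), the copper and zinc superoxide dismutase of the cytosol, held 194.0, 164.6, 233.2 and 123.5 cpm in CD CD45hi libraries. All were above the CD CD45lo libraries, at 84.4, 83.1, 108.1 and 93.1 cpm. On the WD the CD45hi libraries held 114.5, 83.3 and 147.1 cpm, and the lowest of them fell within the CD45lo range of 76.9 to 83.9 cpm. For Sod1 the log2 fold change was 0.96 (SE 0.212, 95% interval 0.51 to 1.40) on the CD (edgeR glmTreat, FDR = 0.167) and 0.51 (SE 0.226) on the WD (FDR = 0.745).

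Sod2 (chromosome 17, 13006846 to 13040063, plus strand), the manganese dismutase of mitochondria, overlapped between the gates on both diets. Its 3 WD CD45hi libraries were spread most widely, at 18.2, 37.5 and 89.3 cpm, beside 30.5, 26.6, 33.8 and 20.2 cpm in WD CD45lo libraries. The CD CD45hi libraries held 27.2, 48.6, 45.9 and 52.3 cpm and the CD CD45lo libraries 30.5, 36.5, 46.0 and 35.6 cpm. For Sod2 the log2 fold change was 0.80 (95% interval -0.09 to 1.68) on the WD and 0.23 (95% interval -0.60 to 1.05) on the CD. The WD value was 0.01 without WD CD45hi replicate 3, the library at 89.3 cpm, and 1.19 without replicate 1, at 18.2 cpm.

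Cat (chromosome 2, 103453849 to 103485160, minus strand) encodes catalase. Its WD CD45hi libraries held 176.4, 183.8 and 163.8 cpm, all above the WD CD45lo libraries at 128.8, 107.9, 115.3 and 143.7 cpm. The CD CD45hi libraries held 135.6, 103.3, 156.4 and 187.3 cpm and overlapped the CD CD45lo libraries at 125.4, 116.1, 107.4 and 106.1 cpm. For Cat the log2 fold change was 0.49 (95% interval 0.09 to 0.90) on the WD and 0.36 (95% interval -0.02 to 0.74) on the CD, neither past the 1.5-fold test.

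Counted over the members, the libraries of the gates did not overlap for 5 of 9 genes on the WD (Cybb, Ncf4, Rac2 and Cat higher in CD45hi, Hvcn1 lower) and for 3 of 9 on the CD (Cybb, Ncf4 and Sod1, all higher). Over all genes tested this held for 23.4% on the WD and 16.5% on the CD. A test for a change of any size (edgeR's glmQLFTest) called, beside Cybb, Hvcn1 lower on the WD (FDR = 0.0323) and Ncf4 (FDR = 0.0378) and Sod1 (FDR = 0.00793) higher on the CD. These are 1 higher and 1 lower of 9 genes on the WD, where 6.22% of all genes were called higher and 2.9% lower, and 3 higher and 0 lower on the CD, where 5.95% were called higher and 2.08% lower. In fits that each left out 1 of the 15 libraries, this test called Sod1 in 15 of 15. It called Hvcn1 in 10 of 15 and in 3 of 8 other settings, with an FDR up to 0.0965 where WD CD45hi replicate 2 or 3 or WD CD45lo replicate 1, 3 or 4 was left out. It called Ncf4 in 6 of 15 and in 4 of 8 other settings, with an FDR up to 0.122 where CD CD45hi replicate 1, 3 or 4, any CD CD45lo replicate, or WD CD45lo replicate 2 or 3 was left out. Rac2 on the CD, at an FDR of 0.0528, was called without CD CD45hi replicate 3 or WD CD45hi replicate 1, and on the WD without CD CD45hi replicate 3. With no filter on low counts or the compared groups alone the FDR of Hvcn1 was 0.0512 and 0.0625 and that of Ncf4 0.0764 and 0.0563. With DESeq2 size factors it was 0.0508 for Hvcn1. Rac2 on the CD was called with DESeq2 size factors, 1 cpm in 4 libraries or edgeR 4's form of the method (FDR = 0.0431, 0.0494 and 0.0313), and on the WD with the compared groups alone (FDR = 0.0352).

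**Figure D2:**
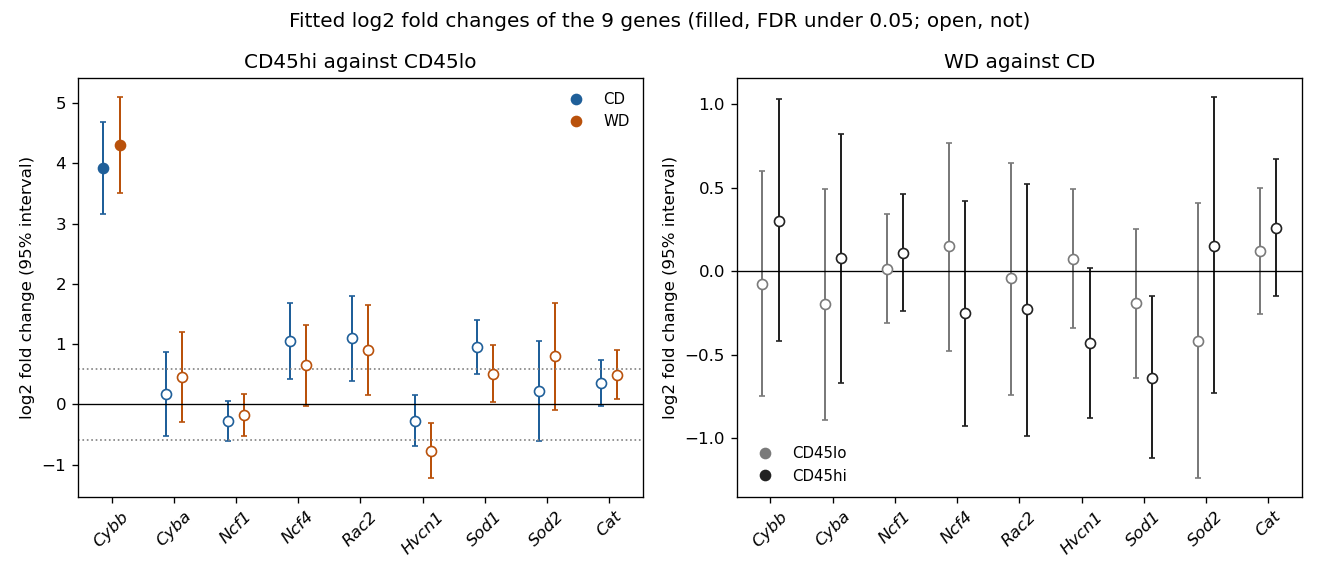
Fitted log2 fold change of each gene with its 95% interval: CD45hi against CD45lo on each diet (left; dotted lines mark 1.5-fold) and WD against CD within each gate (right; another scale). Filled points passed the test of that comparison at an FDR under 0.05, and only the 2 Cybb points of the left panel, at 3.92 and 4.30, are filled.

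Levels of different genes were compared per length, with the deposited TPM (transcripts scaled for length and library), and within a library, where such ratios do not depend on how libraries are scaled. Among 5 oxidase genes (Cybb, Cyba, Ncf1, Ncf4 and Rac2), Cybb had the highest TPM in 7 of 7 CD45hi libraries. In CD45lo libraries it had rank 5 of the 5 in 6 of 8 and rank 4 in the other 2, while Ncf1 had rank 1 and Cyba rank 2 in 8 of 8. Rac1, not among these 5, had a mean TPM of 453.8 in CD CD45hi and 396.3 in WD CD45hi libraries. The TPM of Cybb relative to that of Rac1 was 0.567 to 0.99 in CD CD45hi libraries. It was 0.689 to 1.42 in WD CD45hi libraries. Cybb was thus below Rac1 in every CD CD45hi library. TPM and cpm did not always move together. Ncf4 was at 37.2 and 48.8 cpm in WD CD45hi replicates 2 and 3, but at 38.2 and 132.6 TPM, ranks 5 and 2. The place of Ncf4 in the TPM order is thus uncertain, and the cause was not tested. The mean TPM of Cybb was 345.8 ± 43.8 (SD, n = 4) in CD CD45hi, 386.6 ± 47.5 (SD, n = 3) in WD CD45hi, 28.7 ± 13.2 (SD, n = 4) in CD CD45lo and 31.5 ± 13.4 (SD, n = 4) in WD CD45lo libraries.

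The TPM of Cybb relative to that of its membrane partner Cyba was 2.19 to 6.13 in CD CD45hi and 3.3 to 7 in WD CD45hi libraries, but 0.16 to 0.338 in CD CD45lo and 0.128 to 0.71 in WD CD45lo libraries. Relative to Ncf1 it was 1.86 to 3.44 in CD45hi and 0.0624 to 0.18 in CD45lo libraries. For each of these partners the CD45hi and CD45lo ranges were apart, with Cybb above the partner in every CD45hi library and below it in every CD45lo library. Cyba had a mean TPM of 90.0 ± 33.1 (SD, n = 4) in CD CD45hi, 110.5 ± 14 (SD, n = 4) in CD CD45lo, 89.5 ± 24.9 (SD, n = 3) in WD CD45hi and 95.2 ± 24.6 (SD, n = 4) in WD CD45lo libraries, and its ranges overlapped in all groups. In CD45lo cells the order of mean TPM on the CD was Ncf1 (250.7), Cyba (110.5), Ncf4 (60.8), Rac2 (49.8) and Cybb (28.7), where the ranges of Ncf4 and Rac2 and, at their ends, those of Rac2 and Cybb overlapped. In CD45hi cells on the CD it was Cybb (345.8), Ncf1 (155.7), Ncf4 (99.7), Cyba (90.0) and Rac2 (78.5), where Cybb stood apart and the ranges of the other neighbours overlapped.

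On the TPM scale the median of all genes tested was shifted between the gates by -0.43 on the CD and -0.52 on the WD (log2 of TPM plus 1, CD45hi minus CD45lo), with transcripts of the mitochondrial genome at 22.1 to 26.1% of TPM in CD45hi and 12.0 to 15.1% in CD45lo libraries. On this scale Cyba and Cat had a negative TPM difference on both diets, Sod1 on the WD and Sod2 on the CD, although all of these had a positive log2 fold change after TMM normalization. Relative to the median of all genes the TPM differences were positive for these as well, at 0.07 and 0.43 for Cyba, 0.30 and 0.48 for Cat, and 0.88 and 0.44 for Sod1 on the CD and the WD, and at 0.19 for Sod2 on the CD. Cybb was 4.08 and 4.19 above that median, and Hvcn1 -0.31 and -0.78 from it.

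**Figure D3:**
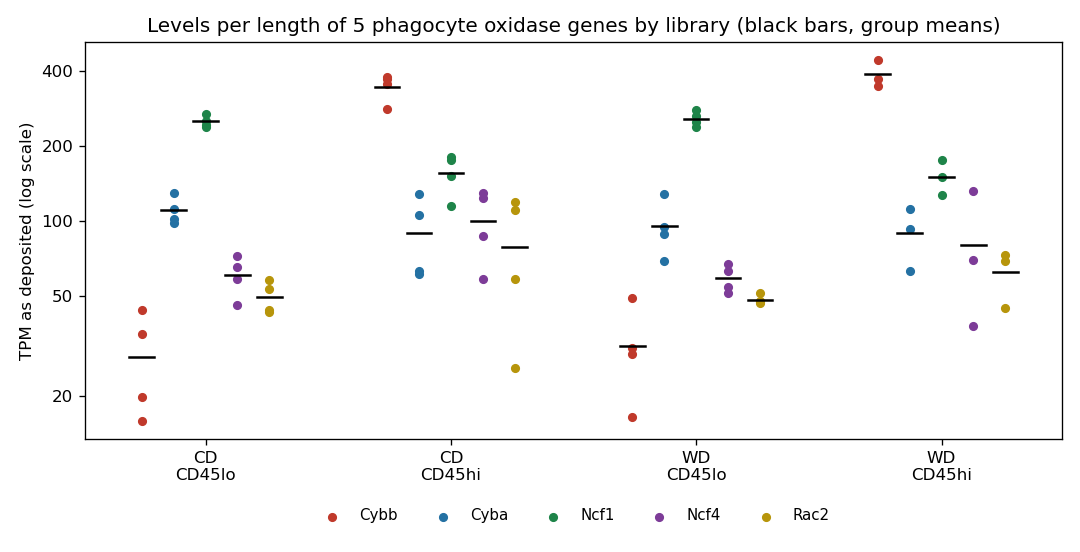
Deposited TPM (log axis) of 5 oxidase genes in every library (points) with group means (black bars), by diet and CD45 level. Rac1 is not shown. Cybb, with means of 28.7 and 31.5 TPM, is the lowest of the 5 in both CD45lo groups and, with means of 345.8 and 386.6 TPM, the highest in both CD45hi groups, while Cyba stays between 61.7 and 129.8 TPM in all 15 libraries.

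The genes whose pattern over the 15 libraries was most like that of Cybb, among 8252 other genes with a mean of at least 10 cpm, were Iqgap1, Gm1966 and Ccr2. Likeness was the root mean square difference of log2 cpm, each gene centred over the libraries, and was 0.362, 0.381 and 0.405 log2 units. Iqgap1, which encodes a cytoskeletal scaffold, was at 158.1 to 437 cpm in CD45hi and 7.38 to 25.2 cpm in CD45lo libraries, and Ccr2, a chemokine receptor of monocytes, at 244.1 to 611 cpm and 7.07 to 38.5 cpm. Gm1966 was at 225 to 465.4 cpm and 11.1 to 51.1 cpm. For Hvcn1, the member with the lowest log2 fold change, the most similar genes were Atp6v0a1, a subunit of the vacuolar proton pump, Pnp, a purine salvage enzyme, and the transcription factor gene Mef2a, at differences of 0.218, 0.220 and 0.220 log2 units. The rule orders all genes by closeness, so that it names 3 for any gene.

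RefSeq's promoter table (GRCm38.p6, the build of mm10) lists Cybb, Cyba, Ncf1, Sod1, Sod2 and Cat of the 9 genes, from 250 bases before to 50 bases after RefSeq's gene start, which for Cybb and Sod2 lies inside the GENCODE span given above. GAGGAA, the core letters bound by the myeloid factor PU.1, was searched on both strands and was found in 3 of these 6 promoters, while 28.3% of all 32851 promoters hold it. TGACNNNGC, the core of the antioxidant response element, was found in 1 of the 6 and in 12.4% of all. The matches are shown with 10 bases on either side, along the strand of the gene, with the matched letters in capitals. The Cybb match starts 9 bases after the gene start and is on the opposite strand, as is the Sod1 match, 56 bases before the start. The Sod2 and Cat matches start 203 and 235 bases before it. They describe these letters and show no binding.
Cybb, GAGGAA, chrX:9469300-9469325, minus strand: ctgttttcatTTCCTCatcagaagaa
Sod2, GAGGAA, chr17:13007626-13007651, plus strand: tggctttccgGAGGAAagtctccagg
Cat, GAGGAA, chr2:103485373-103485398, minus strand: actttgcacaGAGGAAttggaccctg
Sod1, TGACNNNGC, chr16:90220696-90220724, plus strand: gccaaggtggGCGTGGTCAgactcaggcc

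Lists of other genes of the pathway were read with the same fit, and 0 of their genes were called lower in CD45hi cells on either diet. Their counts of genes called higher stand beside the 3.39% of all genes on the CD and 4.01% on the WD given above. Of 12 further oxidase subunits and homologues, 6 were tested and none was called (0 also by the test for any change). Rap1a, a small GTPase associated with the flavocytochrome, had log2 fold changes of 0.17 and 0.37 on the CD and the WD, and Cybc1, a chaperone of NOX2, 0.34 and -0.25. The other 6, Nox1, Nox3, Noxa1, Duox1, Duox2 and Duoxa2, did not reach 1 cpm in 2 libraries.

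Among 14 regulators of oxidase assembly, Vav3, an exchange factor for Rac, was higher in CD45hi cells on both diets, and Arhgdib, a blood cell inhibitor that holds Rac in the cytosol, on the WD. Of the list 1 of 14 was called higher on the CD and 2 of 14 on the WD, with a median log2 fold change of 0.21 and 0.32. Vav3 was at 3.08 to 49.3 cpm in CD45hi and 0.307 to 3.01 cpm in CD45lo libraries. Its log2 fold change was 4.06 (SE 0.864) on the CD (edgeR glmTreat, FDR = 0.0118) and 4.03 (SE 0.888) on the WD (FDR = 0.0136), calls lost on the CD without CD CD45lo replicate 1 and on the WD without WD CD45lo replicate 3 or 4 (FDR up to 0.0517). Both calls were also lost by limma-voom (FDR = 0.0865 and 0.0529). Arhgdib, at 549.7 to 760.5 cpm in WD CD45hi and 313.8 to 355.7 cpm in WD CD45lo libraries, rose by 0.95 on the log2 scale (SE 0.143; edgeR glmTreat, FDR = 0.0452). This call was lost without WD CD45hi replicate 1 or any 1 CD45lo library of either diet (FDR up to 0.169), and by DESeq2 (FDR = 0.111), by limma-voom (FDR = 0.168), with no filter on low counts and with the compared groups alone (FDR = 0.0839 and 0.0717). On the CD its log2 fold change was 0.77 (SE 0.134; FDR = 0.249). Its CD CD45hi libraries, at 569.6 to 798.8 cpm, all lay above the CD CD45lo libraries, at 366.9 to 388.2 cpm. The test for any change called Arhgdib higher on the CD (edgeR glmQLFTest, FDR = 0.00109).

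Of 13 further genes for removal of superoxide and peroxide, 10 were tested, and 2 on the CD and 1 on the WD were called higher in CD45hi cells. Gpx1, the cytosolic glutathione peroxidase, was at 190.9 to 306.3 cpm in CD45hi and 73.9 to 117.8 cpm in CD45lo libraries, and it rose by 1.17 on the log2 scale (SE 0.183) on the CD (edgeR glmTreat, FDR = 0.0181) and by 1.51 (SE 0.194) on the WD (FDR = 0.00117). The WD call held in 15 of 15 fits without 1 library and the CD call in 11 of 15, lost without CD CD45hi replicate 4 or CD CD45lo replicate 1, 2 or 4 (FDR up to 0.0668) and by limma-voom (FDR = 0.0591). Gpx3, the secreted form, was at 10.3 to 54.6 cpm in CD CD45hi libraries and at no more than 1.93 cpm in CD CD45lo libraries, and its log2 fold change on the CD was 4.88 (SE 1; edgeR glmTreat, FDR = 0.00849). On the WD it was 3.52 (SE 0.978; FDR = 0.0539), which passed without CD CD45hi replicate 1, CD CD45lo replicate 3 or WD CD45hi replicate 1 (FDR = 0.0499, 0.0167 and 0.0346) and in 6 other settings, the test for any change and DESeq2 (FDR = 0.0153) among them. Of 6 peroxidase and nitric oxide synthase genes, 2 were tested and none was called. Mpo, the myeloperoxidase gene, was at 75.4 cpm in 1 CD CD45hi library, 74.1 cpm in 1 CD CD45lo library and 43.5 cpm in 1 WD CD45hi library, while the other libraries of these groups held at most 15 counts. In the WD CD45lo libraries it was at 12.4, 3.93, 0 and 18.6 cpm. Its log2 fold change between the gates was 0 (SE 2.13) on the CD and 0.74 (SE 2.3) on the WD, and it ran from -7.94 to 5.19 and from -6.64 to 1.42 with 1 library left out.

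In the glutathione and thioredoxin list, 20 of 20 genes were tested, and 1 on the CD and 3 on the WD were called higher. Gsr, which encodes the glutathione reductase, was at 119.7 to 169.7 cpm in CD45hi and 8.73 to 21.4 cpm in CD45lo libraries. Its log2 fold change was 3.15 (SE 0.264) on the CD (edgeR glmTreat, FDR = 2.42e-06) and 3.25 (SE 0.274) on the WD (FDR = 2.71e-06). On the WD, Mgst1, a membrane glutathione transferase, was at 73.8, 12.1 and 4.91 cpm in the 3 CD45hi libraries and at no more than 4.01 cpm in CD45lo libraries (log2 fold change 4.26, SE 1.13; edgeR glmTreat, FDR = 0.04). Txn1, the cytosolic thioredoxin, was the remaining call (log2 fold change 1.72, SE 0.379; FDR = 0.0302), named after its value was seen. In fits without 1 library, Gsr was called in 15 of 15 on each diet. Mgst1 was called in 8 of 15, and without WD CD45hi replicate 1, the library at 73.8 cpm, its log2 fold change was 2.43 and not called (FDR = 0.267); CD CD45lo replicate 1, 2 or 4 and WD CD45lo replicate 1, 3 or 4 also ended the call when left out. Txn1 was called in 10 of 15, and not without WD CD45hi replicate 1 (log2 fold change 1.17) or any 1 WD CD45lo library. Mgst1 and Txn1 were also not called by limma-voom (FDR = 0.117 and 0.162) or with the compared groups alone (FDR = 0.102 and 0.0889). On the CD neither passed the 1.5-fold test. There the log2 fold change of Txn1 was 1.26, called higher by the test for any change (edgeR glmQLFTest, FDR = 0.0361). That of Mgst1 on the CD ran from 1.91 to 2.74 with 1 library left out.

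The Nrf2 pathway list had 12 of 14 genes tested and 1 called on each diet. Hmox1, the inducible heme oxygenase, had a log2 fold change of 1.67 (SE 0.367) on the CD (edgeR glmTreat, FDR = 0.035) and 1.76 (SE 0.387) on the WD (FDR = 0.0288). It was at 63.7 to 103.5 cpm in WD CD45hi and 21.7 to 28.6 cpm in WD CD45lo libraries, while on the CD the lowest CD45hi library, at 23.1 cpm, fell within the CD45lo range of 13.8 to 29.1 cpm. In fits without 1 library it was called in 9 of 15 on the CD, where CD CD45hi replicate 1, 2 or 3 or CD CD45lo replicate 1, 2 or 4 ended the call, and in 10 of 15 on the WD, where WD CD45hi replicate 2 or any WD CD45lo replicate did (FDR up to 0.121). By limma-voom it was not called on either diet (FDR = 0.209 and 0.0937), nor on the CD with the compared groups alone (FDR = 0.0966). The median log2 fold change of the list was 0.46 on the CD and 0.37 on the WD.

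**Figure D4:**
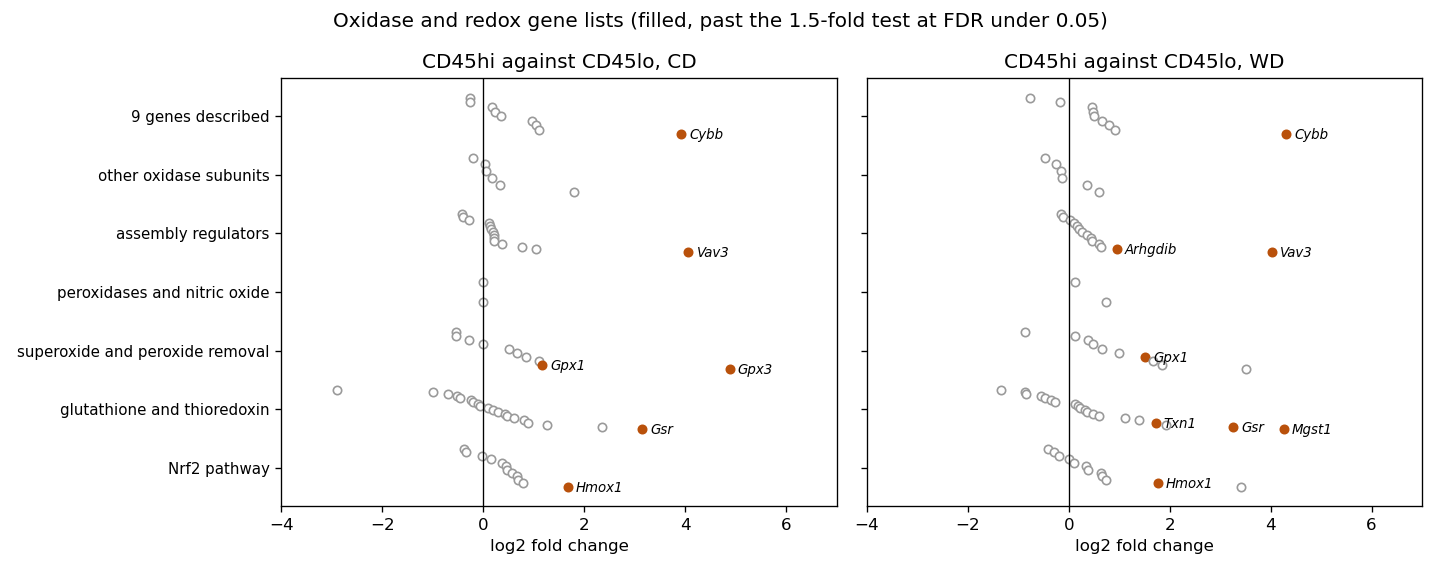
Log2 fold change of CD45hi against CD45lo for each tested gene (points) of the 9 genes described and of 6 further lists, on the CD (left) and the WD (right). Filled, named points passed the 1.5-fold test at an FDR under 0.05; all of them lie above 0, from 0.95 (Arhgdib) to 4.88 (Gpx3).

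The second question was whether the WD changed these genes within a gate. In CD45hi cells none of the 9 genes was called between the diets (edgeR's glmQLFTest; 0.0601% of all genes were called higher and 0.194% lower on the WD), and DESeq2 and limma-voom called 0 of 9 as well. Sod1 came closest, with a log2 fold change of -0.64 (SE 0.231, 95% interval -1.12 to -0.15) and an unadjusted p of 0.0133 (edgeR glmQLFTest, FDR = 0.172), the only one of the 9 under 0.05 before adjustment. Its WD CD45hi range of 83.3 to 147.1 cpm overlapped the CD range of 123.5 to 233.2 cpm. Cybb was higher in each WD CD45hi library (1160.9 to 1185.3 cpm) than in each CD CD45hi library (822.3 to 1105.0 cpm), the 1 of 9 genes with no overlap, where 5.77% of all genes had none. Its log2 fold change was 0.30 (SE 0.343, 95% interval -0.42 to 1.03; edgeR glmQLFTest, FDR = 0.694). The other 7 genes had log2 fold changes from -0.43 (Hvcn1) to 0.26 (Cat). The summed neutrophil markers had a median of 4001.5 cpm (1751.8 to 4277.4) in CD CD45hi and 1699.3 cpm (1473.1 to 2582) in WD CD45hi libraries. Of these 11 markers 0 were called between the diets. Border macrophage markers summed to 1683.5 to 1850.7 cpm on the CD and 615.9 to 2337.2 cpm on the WD. The part of the cell mixture in these diet comparisons was not tested.

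In CD45lo cells none of the 9 genes was called (edgeR glmQLFTest, 0% of 14967 genes; 123 genes had an unadjusted p under 0.05, and DESeq2 called 4 and limma-voom 0). No member had an unadjusted p under 0.05 or libraries that did not overlap, which held for 2.42% of all genes. The log2 fold changes ran from -0.42 (Sod2, 95% interval -1.24 to 0.41) to 0.15 (Ncf4, 95% interval -0.48 to 0.77). That of Cybb was -0.08 (95% interval -0.75 to 0.60), an interval wide enough for a difference of 1.5-fold in either direction. The narrowest intervals were those of Ncf1 (log2 fold change 0.01, 95% interval -0.31 to 0.34) and Cat (0.12, 95% interval -0.26 to 0.50).

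In the 6 further lists 0 genes were called between the diets in either gate. In CD45hi cells the largest change in each list among genes of at least 10 cpm was that of Mapk14 (0.67, SE 0.21), Prdx4 (1.63, SE 0.672), Mgst1 (1.82, SE 1.04), Maff (2.42, SE 1.12), Cybc1 (-0.33, SE 0.262) and Mpo (-0.38, SE 2.33) on the log2 scale, with an FDR (edgeR glmQLFTest) of at least 0.134. Without WD CD45hi replicate 1 the value of Mgst1 was -0.01 and that of Prdx4 0.91, and Mapk14 was called without WD CD45hi replicate 2 (0.87, FDR = 0.0452) and by DESeq2. In CD45lo cells it was that of Mafk (0.73, SE 0.457), Glrx2 (0.39, SE 0.482), Gpx4 (-0.29, SE 0.478), Cybc1 (0.25, SE 0.241), Arhgdib (-0.19, SE 0.133) and Mpo (-1.12, SE 2.17), each at an FDR of 1.

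The third comparison asked whether the difference between the gates depended on the diet. For none of the 9 genes did the test of the interaction pass (edgeR glmQLFTest; 0.00668% of all genes did), no unadjusted p was under 0.05, and DESeq2 and limma-voom called 0 of 9. The log2 difference, WD minus CD, was 0.38 (95% interval -0.62 to 1.37) for Cybb and -0.50 (95% interval -1.11 to 0.11; FDR = 0.594) for Hvcn1. In the 6 further lists 0 genes passed, and the largest difference in each list among genes of at least 10 cpm was that of Maff (3.04), Mgst1 (1.90), Prdx4 (1.66), Mapk14 (0.74), Mpo (0.74) and Cybc1 (-0.58) on the log2 scale, at an FDR of at least 0.415. Without WD CD45hi replicate 1 it was 0.07 for Mgst1 and 0.95 for Prdx4. The calls that the test for any change made for Hvcn1 on the WD and for Ncf4 and Sod1 on the CD are thus not shown to differ between the diets.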

How the data were processed

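RNA-seq libraries of CD11b+CD45hi and CD11b+CD45lo brain myeloid cells were used (15 in all). The authors trimmed 75 bp paired-end reads and deposited, per gene and library, an RSEM 1.2.12 expected count (mm10, through Bowtie2), which is an estimated count and not normalized, and the TPM, scaled for transcript length and library. RSEM ran at default parameters on libraries of a kit that does not mark strand. The annotation release given to RSEM is not given in the sources used here, and which of the sequencers named ran each library is not stated. Coordinates are GENCODE M21's on this build.

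Groups came from the sample labels. No 2 replicates were identical. The authors describe the deposited counts as those of single animals. Expected counts were rounded, the 14967 of 38924 genes that reached 1 cpm in 2 or more libraries were TMM normalized, and 1 edgeR 4.0.16 quasi-likelihood fit (R 4.3.3, the earlier form of the method) was made over the 4 groups. CD45hi and CD45lo were compared with glmTreat at 1.5-fold, diets and the interaction with glmQLFTest, with Benjamini-Hochberg adjustment over all genes tested and an FDR under 0.05. A 95% interval is the fitted log2 fold change with its SE and the moderated degrees of freedom. The fit was tested on simulated counts with known changes.

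The 9 members and the lists were chosen with earlier results of these data known. All members are named, with Rac1, Rap1a and Cybc1 (1 further oxidase gene is not reported here); of every other list and comparison, at most the 2 highest and 2 lowest called genes, or, with none called, the gene with the largest change among those of at least 10 cpm in a group. Alternatives were the test for any change or a threshold between diets, DESeq2 1.42.0, limma-voom (limma 3.58.1), DESeq2 size factors, other filters, edgeR 4's quasi-likelihood, the compared groups alone, replicate blocks, leaving out each library, log2(TPM + 1), and, chosen after seeing the data, a fit without mitochondrial genes.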

Additional observations from a re-analysis of the deposited data

How the results depend on the processing

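The Cybb call between the gates held in 27 of 27 alternatives on each diet, and 0 members were called between the diets or for the interaction in those run (the block by deposited name was not run between the diets, nor log2(TPM + 1) for the interaction). Testing for any change raised the members called to 2 on the WD and 3 on the CD, and all genes called to 1365 and 1202. Leaving out each library in turn gave 513 to 920 genes called on the WD, 412 to 705 on the CD, 1 to 2 members on the CD (2 without CD CD45hi replicate 3, Rac2 added), 1 to 286 genes between the diets in CD45hi cells (286 without WD CD45hi replicate 2, 1 without WD CD45lo replicate 2), and 0 to 6 for the interaction. Between the diets in CD45hi cells, 38 genes were called in the report's fit, 1030 by DESeq2, 252 with edgeR 4's form of the method, 69 with 1 cpm in 4 libraries, 1 with a 1.5-fold threshold and 0 with the compared groups alone. For the interaction DESeq2 called 188 genes and limma-voom and edgeR 4's form 0, and in CD45lo cells DESeq2 called 4 between the diets. The causes of these differences were not tested. A fit without mitochondrial genes, chosen after seeing the data, left the call and direction of every gene named in the text as they were, and gave 761, 588 and 37 genes called between the gates on the WD, on the CD and between the diets in CD45hi cells.

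Replicate numbers were not shown to pair the CD45hi and CD45lo libraries. The correlation of deviations from the group means was -0.0217 to 0.0695 over 7 pairs by the numbers in the titles and -0.000466 to 0.0695 by those in the deposited names, with 3 of 7 and 4 of 7 pairs best matched with their own number (3 of 4 among the CD pairs), a hint from the data and not from the design. With a replicate block by title, 604 genes were called between the gates on the WD, 501 on the CD, 2 between the diets in CD45hi cells and 0 for the interaction, and between the diets Sod2 in CD45hi cells was at -0.04 and Mpo at 5.39 in CD45hi and 3.77 in CD45lo cells. With a replicate block by deposited name the counts were 353 on the WD, 412 on the CD and 0 for the interaction, and Mpo on the WD was at -0.64. The test for any change lost Hvcn1 on the WD (FDR = 0.0866 and 0.163) and Ncf4 on the CD (FDR = 0.0637 and 0.173) under the block by title and by deposited name. The 1.5-fold test lost Arhgdib, Mgst1, Hmox1 and Txn1 on the WD under both, and under the block by deposited name also Vav3 on both diets and Gpx1 and Hmox1 on the CD.

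No difference that passed a test turned its direction in any alternative, and those that turned were as follows. On log2(TPM + 1), where the median of all genes is itself shifted, CD45hi minus CD45lo was -0.09 (Cyba), -0.08 (Sod1) and -0.04 (Cat) on the WD and -0.36 (Cyba), -0.24 (Sod2) and -0.13 (Cat) on the CD. WD minus CD was -0.04 (Ncf1) and -0.15 (Sod2) in CD45hi cells and 0.15 (Cybb) and -0.03 (Ncf4) in CD45lo cells. Between the diets, limma-voom gave -0.03 for Sod2 in CD45hi cells and, for Mpo, 1.15 in CD45hi and 0.09 in CD45lo cells (-1.17 between the gates on the WD), and no filter on low counts gave -0.01 for Ncf1 in CD45lo cells. Leaving out 1 library moved Rac1 between -0.45 and 0.03 and Mpo between -6.64 and 1.42 between the gates on the WD, and Cyba between -0.04 and 0.33 on the CD. In the same way the diet difference in CD45hi cells ran from -0.15 to 0.30 for Cyba, -0.01 to 0.24 for Ncf1, -0.64 to 0.54 for Sod2, -0.01 to 2.33 for Mgst1 and -7.76 to 7.56 for Mpo. In CD45lo cells it ran from -0.49 to 0.22 for Cybb, -0.02 to 0.05 for Ncf1, -0.05 to 0.26 for Ncf4, -0.12 to 0.06 for Rac2 and -1.8 to 4.07 for Mpo. The interaction ran from -0.03 to 0.23 for Ncf1, -0.48 to 0.04 for Rac2, -0.22 to 0.96 for Sod2 and -6.64 to 8.68 for Mpo.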
